A study of Mus musculus with 9 samples.

Results

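In all, 6 libraries of sorted mouse cortical cells were compared, 3 with a hairpin against Gpc4 (sh-Gpc4) and 3 with a scrambled hairpin (sh-NT), out of 9 samples in the series. The other 3 samples carried a hairpin against Gpc2 and entered 1 alternative fit only. All embryos were wild-type. A construct with mCherry and the hairpin in microRNA form (shmiRNA) was electroporated in utero at stage E14.5, and mCherry-positive forebrain cells were sorted 48 hours later, at E16.5, so both groups share the electroporation, the reporter and the sort. The labels describe the sorted cells as cortical progenitors and neurons. They do not name the promoter of the construct, the hairpin sequence, or the embryos behind each library, so p-values here measure the spread between these libraries, which may be technical. Of 78275 gene identifiers in the count table, 27078 had enough reads to be tested in these 6 libraries. Libraries are named by the numbers in the table's columns, 1, 2 and 4 for sh-NT and 1, 3 and 4 for sh-Gpc4.

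Gpc4 encodes glypican-4, a core protein held on the outer cell surface by a lipid anchor and carrying heparan sulfate chains. Such chains bind secreted ligands of the FGF, Wnt, BMP and Hedgehog families and guidance proteins such as Slits, and they shape how much ligand reaches its receptor. In the embryonic cortex these pathways act on radial glia, the dividing stem cells of the ventricular zone, on the intermediate progenitors they produce, and on the migrating neurons that follow.

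The libraries held 50333500 to 66538437 counted reads. Markers of the labelled cells were present in all of them: Pax6 of radial glia ran from 138 to 169 CPM (reads relative to the library size after trimmed-mean scaling), Eomes of intermediate progenitors from 81.1 to 105 CPM, and Neurod6 of young excitatory neurons from 1049 to 1459 CPM. The sh-Gpc4 library 3 stood apart from the others. It lay at 47.0 on the principal component that held 78.6% of the variance, the sh-Gpc4 libraries 4 and 1 lay at 15.6 and -5.53, and the 3 sh-NT libraries lay between -26.4 and -13.4. The libraries also differed by the base composition of the transcripts. Among genes with a mean of at least 10 CPM, those in the highest quartile of transcript GC content deviated from the 6-library mean by -0.33 (log2, median) in sh-Gpc4 library 3 and by -0.07 in library 4, against 0.06 in sh-Gpc4 library 1 and 0.09 to 0.14 in the sh-NT libraries. The sh-NT library 1 was the one in which Dlx1, a transcription factor of ventral progenitors and interneurons, reached 16.2 CPM, against 1.01 to 1.71 CPM in the other 5.

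**Figure D1:**
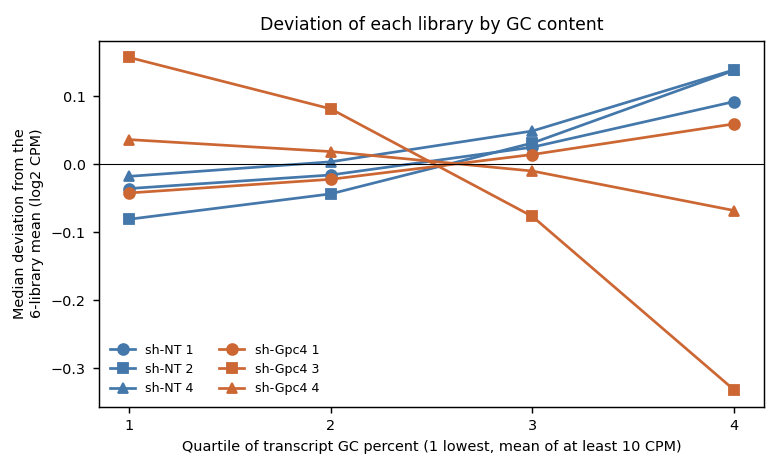
Median deviation of each library from the mean of all 6 (log2 CPM, vertical axis) in 4 quartiles of transcript GC percent (horizontal axis) for genes with a mean of at least 10 CPM; blue lines are sh-NT and orange lines sh-Gpc4 libraries, with a marker shape for each library number. In the quartile with the highest GC content, sh-Gpc4 library 3 lay at -0.33 while the 3 sh-NT libraries lay between 0.09 and 0.14.

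Gpc4, the targeted gene (ENSMUSG00000031119, GRCm38 chrX:52053021-52165252, minus strand, protein coding), was lower in every sh-Gpc4 library than in every sh-NT library. It measured 164, 190 and 174 CPM in sh-NT libraries 1, 2 and 4, and 136, 101 and 129 CPM in sh-Gpc4 libraries 1, 3 and 4. The group means were 176 ± 13.2 CPM (SD, n = 3) and 122 ± 18.7 CPM (SD, n = 3), a ratio of 0.694. The log2 difference was -0.53 with a standard error of 0.12 and did not pass the threshold in edgeR (adjusted p = 0.204), while it passed in DESeq2 (adjusted p = 0.0325) and voom (adjusted p = 0.0132). An exact two-sided permutation test of the 6 libraries gave p = 0.1, the smallest value that 3 against 3 allows. Gpc2, the glypican targeted in the samples left aside, measured 199, 210 and 160 CPM in sh-NT and 167, 71.1 and 96.4 CPM in sh-Gpc4. Its groups overlapped, since sh-Gpc4 library 1 lay above sh-NT library 4, and its log2 difference was -0.77 ± 0.28 (standard error, edgeR adjusted p = 0.259). Without sh-Gpc4 library 3 the differences were -0.41 for Gpc4 and -0.53 for Gpc2.

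The 2-group edgeR fit called none of the 27078 genes at the 0.05 threshold (0%), with 0.111 as its smallest adjusted p. Before adjustment 4716 genes (17.4%) lay under 0.05, of which 1651 (6.1%) were higher and 3065 (11.3%) lower in sh-Gpc4. DESeq2's Wald test called 835 genes (3.08%), 158 higher (0.583%) and 677 lower (2.5%), and limma voom with sample weights called 4938 (18.2%), 1742 higher (6.43%) and 3196 lower (11.8%). DESeq2 and voom called 789 genes in common, 153 higher and 636 lower. Without the sh-Gpc4 library 1, whose expression lay nearest to sh-NT, edgeR called 1935 genes, 176 higher and 1759 lower. The lower calls outnumbered the higher ones in each of these counts. Genes are described below as having higher or lower values, with the edgeR adjusted p of many of them. None passed the edgeR threshold, also where its adjusted p is not printed.

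Expressed genes were then sorted by whether the groups were separate, meaning that all 3 sh-Gpc4 libraries lay on one side of all 3 sh-NT libraries. Of the 11371 genes with a mean of at least 10 CPM, 3389 (29.8%) were separate, 1322 higher (11.6%) and 2067 lower (18.2%). On CPM from raw library sizes the count was 3677, but 2164 were higher and 1513 lower, so the share that was lower was 61.0% of separate genes under trimmed-mean scaling and 41.1% under raw library sizes. Among all tested genes 6585 (24.3%) were separate, 2933 higher (10.8%) and 3652 lower (13.5%).

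The balance between the directions changed with the level of expression. Of 8331 genes with a mean under 1 CPM, 9.59% were higher and 7.09% lower in all sh-Gpc4 libraries. At 1 to 10 CPM the shares were 11% and 13.5%, at 10 to 100 CPM 11.6% and 18.8%, and at 100 CPM and over 11.7% and 16.3%. The median size of the log2 difference, whatever its sign, was smaller at higher levels, from 0.29 under 1 CPM through 0.23 and 0.17 to 0.13 at 100 CPM and over. The median signed difference was 0.06, 0.01, 0.00 and 0.03 at the same levels, beside 0.02 over all genes tested. At 10 to 100 CPM the lower quartile of the difference was -0.23 and the upper quartile 0.14, so the middle of the class lay at 0 while its lower side reached further.

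GC content and transcript length also divided the expressed genes. From the lowest to the highest GC quartile (bounds 44.3%, 49.1% and 53.9%), the median log2 difference went from 0.10 through 0.05 and -0.04 to -0.21, and the share lower in all sh-Gpc4 libraries went from 6.65% to 33.3%. From the shortest to the longest length quartile the median went from 0.09 to -0.07. The 387 genes in the top quartile of both had a median of -0.51, and 52.7% of them were lower in all sh-Gpc4 libraries while 1.29% were higher. The 371 genes in the bottom quartile of both had a median of 0.16, and 25.6% were higher while 3.77% were lower. Without the sh-Gpc4 library 3, the medians of those 2 corner classes were -0.33 and 0.08. Removal of the GC trend did not remove the trend with length. The medians were then 0.16 in the shortest and -0.10 in the longest length quartile, and -0.23 in the top quartile of both. In the 1017 genes of the top GC and shortest length quartile, the removal moved the median from 0.01 to 0.31. In the 912 genes of the bottom GC and longest length quartile, it moved from 0.05 to -0.07. For the lists described below, the median after the GC trend was removed is given beside the list's own. It is not corrected for length, so it can rise for short, GC-rich genes.

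**Figure D2:**
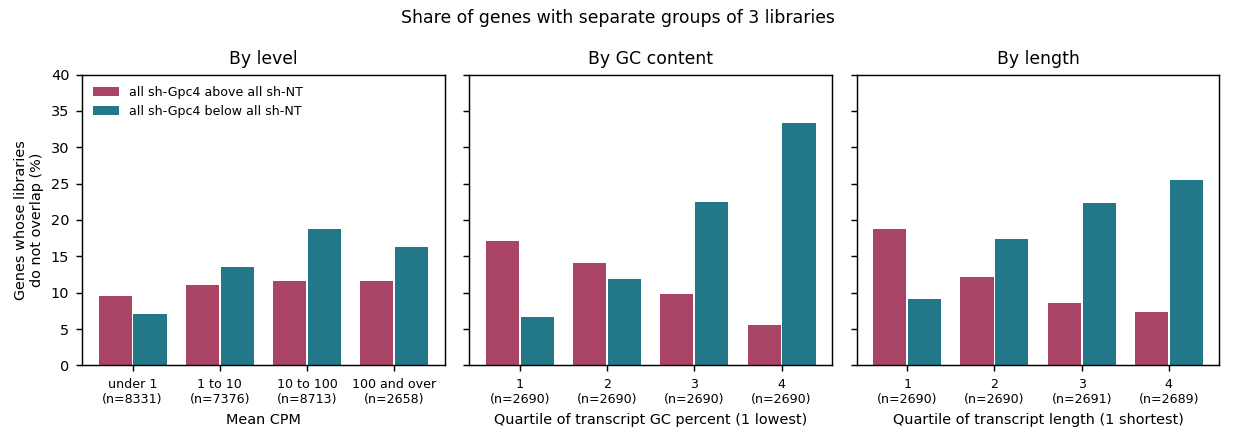
Percent of genes (vertical axis) whose 3 sh-Gpc4 libraries all lay above (red) or all below (teal) the 3 sh-NT libraries, by mean CPM, by quartile of transcript GC percent and by quartile of transcript length; the GC and length panels hold genes with a mean of at least 10 CPM, and n is the number of genes. The share of lower genes went from 6.65% in the lowest GC quartile to 33.3% in the highest.

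Classes of transcript differed too. Of 1454 loci annotated as still to be experimentally checked (TEC), 19.7% were higher and 4.20% lower in all sh-Gpc4 libraries. The shares over all tested genes were 10.8% and 13.5%. The TEC loci had a median of 0.20 that was 0.11 after the GC trend was removed. Sense-intronic transcripts (173, median 0.22) and small nucleolar RNA genes (207, median 0.18) lay on the same side. In each of these classes the groups overlapped: by median deviation sh-NT library 1 lay above sh-Gpc4 library 4, and sh-NT library 4 lay lowest. For TEC loci the deviations were 0.07, -0.03 and -0.29 in sh-NT libraries 1, 2 and 4. In sh-Gpc4 libraries 1, 3 and 4 they were 0.15, 0.14 and 0.04. Protein-coding genes had a median within 0.01 of 0, with 10.5% higher and 16.9% lower of 14829. The 48 tested genes named as histones (Hist) had the highest median of the 12 families grouped by name, 0.31. In 14 of them (29.2%, beside 10.8% of all tested genes) all sh-Gpc4 libraries were higher, and in none lower. Their median level was 0.89 CPM. Their median difference was 0.48 after GC removal and 0.16 without sh-Gpc4 library 3. Their median GC content was 55.5% and their median length 620.5 bases, and short, GC-rich expressed genes also rose on GC removal. Replication-dependent histone messages lack a poly(A) tail and many copies are near-identical, so single histone genes are uncertain here.

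The expressed genes with the widest gap between the groups were taken from each direction, 12 lower and 12 higher. All 24 stayed separate after the GC trend was removed. They were chosen for the width of their gap in these same values, so this tells little about the part of GC content. The 12 lower genes had a median transcript GC content of 56.7% and the 12 higher genes one of 43.9%.

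**Figure D3:**
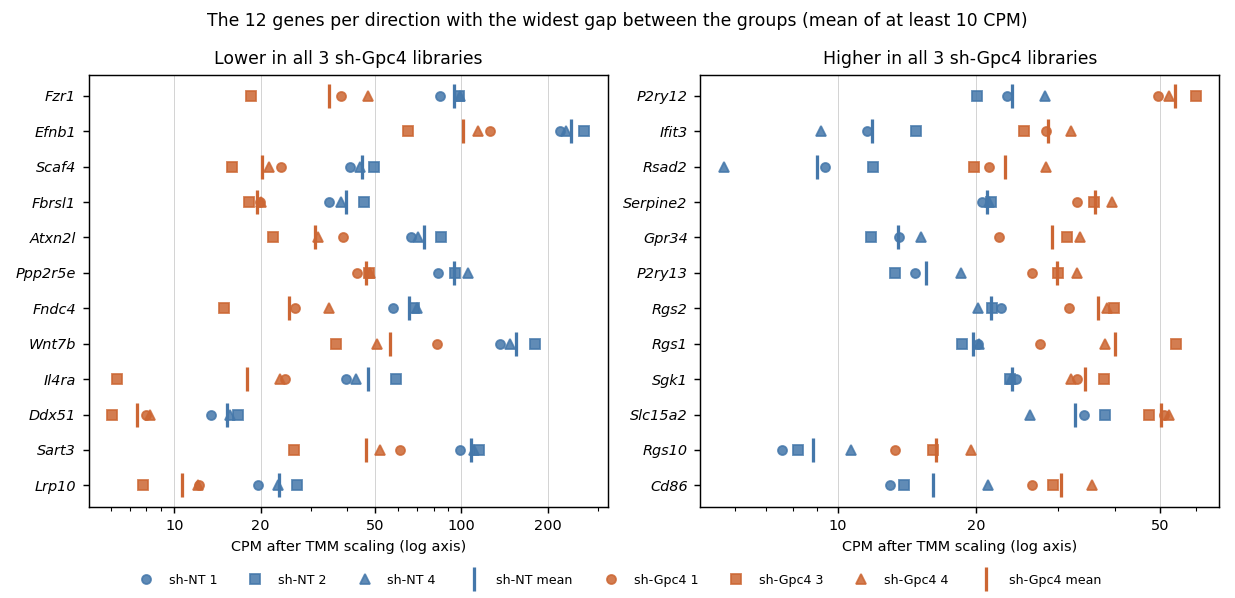
CPM in each library (horizontal axis, log scale) for the 12 genes per direction with the widest gap between the groups among genes with a mean of at least 10 CPM; blue is sh-NT and orange sh-Gpc4, marker shapes give the library numbers and vertical ticks the group means. Wnt7b lay between 36.7 and 81.9 CPM in sh-Gpc4 and between 137 and 180 CPM in sh-NT, and P2ry12 between 49.6 and 59.9 CPM against 20.02 to 28.2 CPM.

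Among the lower genes, Wnt7b, Efnb1 and Il4ra act in secreted or cell surface signalling. Wnt7b, a secreted Wnt ligand of cortical progenitors and neurons, measured 137, 180 and 148 CPM in sh-NT and 81.9, 36.7 and 50.8 CPM in sh-Gpc4 (log2 difference -1.46 ± 0.27, standard error; edgeR adjusted p = 0.144, DESeq2 5.19e-05). Efnb1, encoding ephrin-B1, a transmembrane ligand of Eph receptors on radial glia, measured 221, 268 and 232 CPM against 126, 65.0 and 114 CPM (-1.24 ± 0.22; adjusted p = 0.135, DESeq2 0.000106). Il4ra, the shared receptor chain for interleukins 4 and 13, measured 39.6, 59.3 and 42.9 CPM against 24.3, 6.30 and 23.4 CPM (-1.40 ± 0.44, adjusted p = 0.242, DESeq2 0.158, and -0.99 without sh-Gpc4 library 3). In all 3 genes library 3 was the lowest, and the other 2 sh-Gpc4 libraries were also below every control.

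Ppp2r5e, a regulatory subunit of protein phosphatase 2A, had the smallest standard error of the 12 lower genes. It measured 82.7, 95.4 and 106 CPM in sh-NT and 43.4, 47.8 and 48.0 CPM in sh-Gpc4 (log2 difference -1.03 ± 0.11; edgeR adjusted p = 0.111, DESeq2 2.13e-09). Here library 3 did not stand out, and the transcript's GC content of 45.3% was below the median of expressed genes. Zfand5, a zinc-finger activator of proteasomal degradation, was similar: 141, 162 and 168 CPM against 90.4, 89.0 and 101 CPM (-0.74 ± 0.10), with a GC content of 39.8%. Both differences were slightly larger after the GC trend was removed, -1.10 and -0.89.

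Other lower genes act on RNA or in the cell cycle. Fzr1, an activator of the anaphase-promoting complex that helps hold cells in G1, measured 84.0, 98.4 and 99.3 CPM in sh-NT and 38.2, 18.5 and 47.2 CPM in sh-Gpc4 (-1.44 ± 0.30, edgeR adjusted p = 0.168). Scaf4 and Atxn2l, which bind RNA polymerase II and RNA respectively, had log2 differences of -1.15 ± 0.16 and -1.26 ± 0.20. Sart3, a U4/U6 snRNP recycling factor, and Ddx51, a helicase of ribosome assembly, had differences of -1.22 ± 0.27 and -1.04 ± 0.16. Cdk16, a cyclin-dependent kinase of postmitotic cells, measured 92.7, 116 and 109 CPM against 59.2, 42.3 and 52.6 CPM (-1.04 ± 0.14, adjusted p = 0.111). Rnf10, a ubiquitin ligase, was among the smallest p-values with 117, 148 and 133 CPM against 77.6, 58.8 and 64.6 CPM (-0.99 ± 0.13, adjusted p = 0.111). Fbrsl1, Fndc4 and Lrp10 completed the 12 with differences of -1.03, -1.38 and -1.12.

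At low level, Prdm12, a transcription factor of sensory and spinal neurons, measured 1.19, 1.37 and 1.05 CPM in sh-NT and 0.238, 0.182 and 0.382 CPM in sh-Gpc4, a log2 difference of -2.15 ± 0.29 (edgeR adjusted p = 0.111, DESeq2 1.5e-06). All 3 sh-Gpc4 libraries were well below the lowest control, though the level was near 1 CPM even there.

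On the higher side, 1 of the 12 genes with the widest gap was a member of the microglia list (P2ry12) and 2 were members of the interferon list (Ifit3 and Rsad2), described further on. P2ry12, a purine receptor that marks homeostatic microglia, measured 23.3, 20.02 and 28.2 CPM in sh-NT and 49.6, 59.9 and 52.4 CPM in sh-Gpc4 (1.18 ± 0.14; edgeR adjusted p = 0.111, DESeq2 1.64e-08). Gpr34 and P2ry13, further microglial receptors, had log2 differences of 1.11 ± 0.17 and 0.95 ± 0.15. Cd86, a costimulatory protein of antigen-presenting cells, measured 13.01, 13.96 and 21.2 CPM against 26.4, 29.3 and 35.7 CPM (0.92 ± 0.21). Rgs1 and Rgs10, regulators of G protein signalling in immune cells, had differences of 1.02 ± 0.22 and 0.89 ± 0.19.

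Serpine2, Rgs2, Sgk1 and Slc15a2 made up the rest of the higher side. Serpine2, a secreted inhibitor of thrombin and other serine proteases that itself binds heparan sulfate, measured 20.5, 21.5 and 21.3 CPM in sh-NT and 33.0, 36.0 and 39.4 CPM in sh-Gpc4 (0.78 ± 0.10, edgeR adjusted p = 0.111). Rgs2, another regulator of G protein signalling, measured 22.6, 21.6 and 20.2 CPM against 31.8, 39.7 and 38.5 CPM (0.77 ± 0.12, adjusted p = 0.115). The sh-NT libraries were close together in both genes and the sh-Gpc4 libraries moderately spread. Sgk1, a serum- and glucocorticoid-regulated kinase, and Slc15a2, a peptide transporter, had smaller differences of 0.52 ± 0.10 and 0.61 ± 0.14.

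Pathways were described through 51 gene lists, 41 of pathways or cell functions and 10 of cell types, by the count of members on each side, the count of separate members and the median, beside a median of 0.02 over all genes tested. The median lay below 0 in 30 of the 51 lists. That count was 25 after the GC trend was removed, where 7 lists changed sign, 1 of them with a median that had been beyond 0.1 in size. On raw library sizes 6 lists changed sign, none of them beyond 0.1, and under the replicate block 8 did, 2 of them beyond 0.1. Of expressed genes, 18.2% were separate and lower and 11.6% separate and higher, the shares against which the counts of separate members below are to be read. The first list is that of the targeted family itself, and several lists share members.

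**Figure D4:**
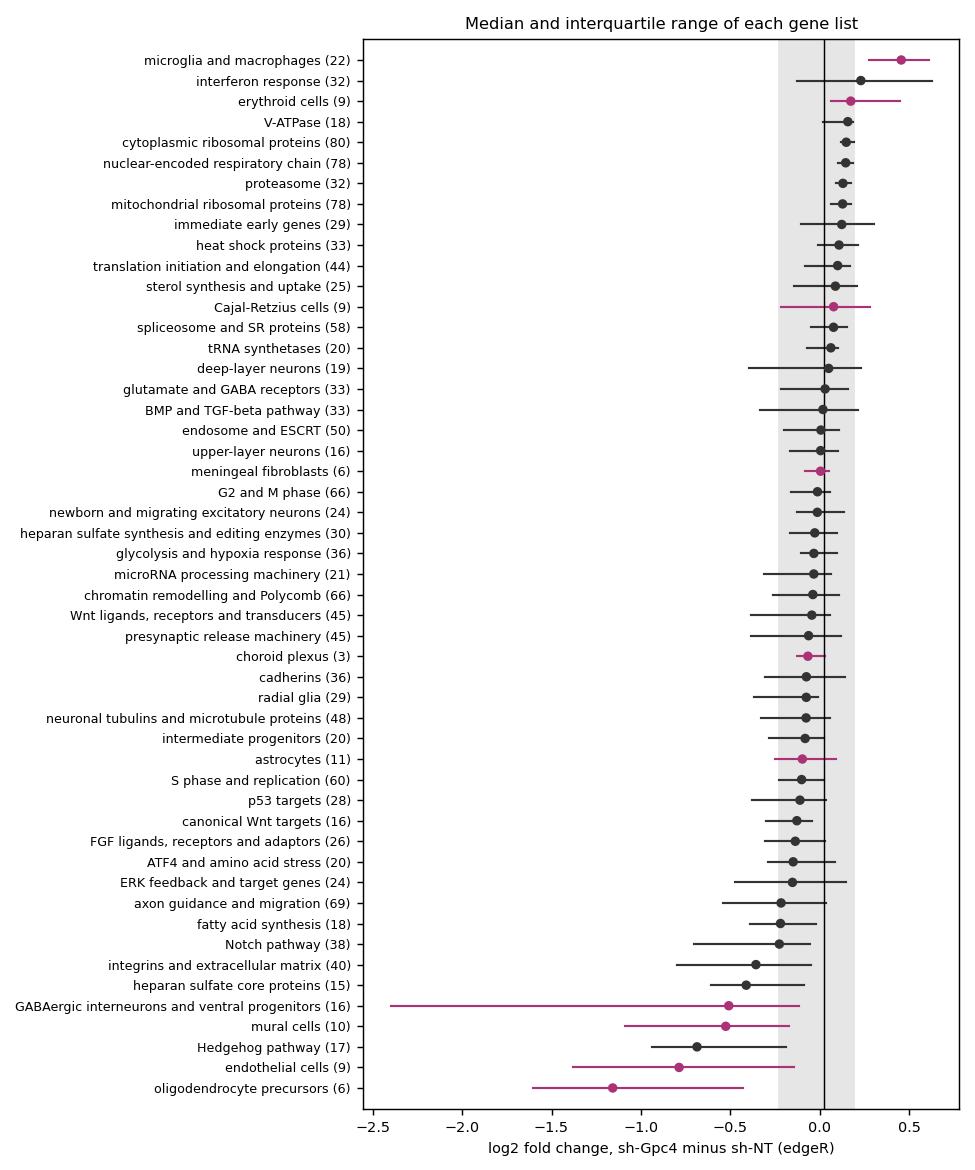
Median (dot) and interquartile range (line) of the edgeR log2 difference, sh-Gpc4 minus sh-NT (horizontal axis), for 51 gene lists with the number of tested members in brackets; dark dots are pathways and purple dots cell type markers, and the vertical line and grey band are the median and interquartile range of all genes tested. Microglia and macrophages lay highest at 0.46 and oligodendrocyte precursors lowest at -1.16.

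Heparan sulfate core proteins, the family to which Gpc4 belongs, all had lower values in sh-Gpc4: 15 of 15 tested members, with a median of -0.41 that was -0.30 after the GC trend was removed. Separate groups were found in 7 of the 15, all lower, 46.7% against 18.2% of expressed genes and 13.5% of all tested genes. Gpc4, the target of the hairpin, is itself counted among the 15, among the 7 and in the summed level below. Hspg2, encoding the basement membrane proteoglycan perlecan, measured 5.96, 7.18 and 6.65 CPM in sh-NT and 4.54, 2.21 and 2.98 CPM in sh-Gpc4 (-1.03 ± 0.25, edgeR adjusted p = 0.209). The syndecans Sdc4, Sdc3 and Sdc1, transmembrane core proteins, had differences of -0.54 ± 0.14, -0.66 ± 0.21 and -0.41 ± 0.14. The summed level of the list was 1381, 1479 and 1414 CPM in sh-NT and 1311, 1042 and 1154 CPM in sh-Gpc4. The enzymes that build and edit the chains had 12 positive and 18 negative members and a median of -0.03, which was -0.01 after GC removal and turned positive on raw library sizes. Extl3, which starts chain elongation, and Xylt2, which attaches the linker sugar, lay lowest with -1.14 ± 0.37 and -1.05 ± 0.28, and Hs2st1, the 2-O-sulfotransferase, was separate on the higher side with 0.31 ± 0.12.

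The FGF list had 8 positive and 18 negative members and a median of -0.14, or -0.10 after GC removal and -0.07 without sh-Gpc4 library 3. Its 6 separate members were all lower, 23.1% of the list beside 18.2% of expressed genes. Plcg1, the phospholipase recruited by activated FGF receptors, measured 151, 170 and 154 CPM in sh-NT and 111, 97.4 and 105 CPM in sh-Gpc4 (-0.60 ± 0.09, edgeR adjusted p = 0.111). Frs2, the docking adaptor of FGF receptors, measured 62.1, 61.4 and 64.4 CPM against 49.2, 41.2 and 40.7 CPM (-0.52 ± 0.10, adjusted p = 0.157). Flrt2, a transmembrane partner of FGF receptors and Unc5 guidance receptors, measured 41.3, 44.4 and 45.0 CPM against 27.9, 28.9 and 29.5 CPM (-0.60 ± 0.09, adjusted p = 0.115). The libraries of each group lay close together in Flrt2, including library 3, and the difference was -0.71 after the GC trend was removed. Among the feedback and target genes of ERK, the kinase downstream, Dusp6, the ERK phosphatase, was higher with 38.2, 36.8 and 43.7 CPM against 49.7, 65.3 and 58.6 CPM (0.55 ± 0.12, adjusted p = 0.198), while Dusp4 and Egr1 had lower values (-1.05 ± 0.36 and -0.87 ± 0.30). That list as a whole had 9 positive and 15 negative members and a median of -0.15 (-0.11 after GC removal).

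Notch genes leaned lower with 30 of 38 members negative and a median of -0.23 (-0.13 after GC removal and -0.14 without sh-Gpc4 library 3). In 12 members (31.6%, beside 18.2% of expressed genes and 33.3% of those in the top GC quartile) all sh-Gpc4 libraries were lower, and in 2 they were higher. The members' median GC content was 54.2%. Dtx1, a ubiquitin ligase that modulates Notch, measured 47.6, 60.5 and 54.3 CPM in sh-NT and 30.8, 19.8 and 24.4 CPM in sh-Gpc4 (-1.12 ± 0.17, edgeR adjusted p = 0.115, DESeq2 6.95e-06). The ligand Dll1, made by newborn neurons and intermediate progenitors, measured 49.8, 56.6 and 41.3 CPM against 38.1, 17.98 and 25.5 CPM (-0.86 ± 0.25). The receptor Notch3 had a difference of -1.10 ± 0.29, the ligand Dll4 one of -1.37 ± 0.33 and the ligand Jag1 one of -0.45 ± 0.13.

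The Hedgehog list had the lowest median of the 41 pathway lists, -0.69 with 16 of 17 members negative. After GC removal it was -0.45 and without sh-Gpc4 library 3 it was -0.39, while without library 1 it was -1.04. Gli2, an activating transcription factor of the pathway, measured 42.6, 55.5 and 35.8 CPM in sh-NT and 31.1, 17.5 and 20.3 CPM in sh-Gpc4 (-0.96 ± 0.24, edgeR adjusted p = 0.211). Kif7, a ciliary kinesin that regulates Gli proteins, and Gli1, a direct target, had differences of -1.09 ± 0.27 and -1.05 ± 0.38. Separate groups were found in 4 of the 17 members, all lower, or 23.5% beside 18.2% of expressed genes and 33.3% of those in the top GC quartile. The members' median GC content was 55.9% and their median transcript length 4577 bases, against 3444 for expressed genes. The part of length in the list's median was not tested.

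Wnt ligands, receptors and transducers were divided, 18 positive and 27 negative with a median of -0.04 that was 0.01 after GC removal. Besides Wnt7b, the planar polarity cadherin Celsr1 had lower values in all sh-Gpc4 libraries (-0.82 ± 0.25, and -0.51 after GC removal). Wls, the carrier that takes Wnt ligands to the surface, was separate on the higher side at 11.8, 12.3 and 12.7 CPM against 14.8, 16.7 and 18.4 CPM (0.44 ± 0.12, edgeR adjusted p = 0.225). The target genes of canonical Wnt signalling had 13 of 16 members negative and a median of -0.13 that was -0.03 after GC removal, with 5 separate lower (31.2%) and 1 separate higher. Nkd1 and Axin2, feedback inhibitors, measured 10.6, 12.4 and 11.1 against 7.22, 4.38 and 7.82 CPM and 8.51, 10.1 and 7.86 against 7.04, 4.55 and 6.16 CPM. Both were separate, with differences of -0.81 ± 0.21 and -0.58 ± 0.19.

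BMP and TGF-beta genes were balanced, 17 positive and 16 negative with a median of 0.02 (0.04 after GC removal). Nog, the secreted BMP antagonist noggin, had separate groups on the lower side. It measured 1.64, 2.39 and 2.56 CPM in sh-NT and 0.734, 0.516 and 0.882 CPM in sh-Gpc4 (-1.62 ± 0.26, edgeR adjusted p = 0.117, DESeq2 2.34e-05). Acvr1, a BMP type I receptor, lay on the higher side at 16.55, 15.3 and 15.8 CPM against 19.96, 22.6 and 20.3 CPM (0.40 ± 0.10).

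Guidance and matrix lists had medians below 0. Axon guidance and migration had 24 of 69 members lower in all sh-Gpc4 libraries (34.8%, beside 18.2% of expressed genes) and 1 higher, with a median of -0.22 that was -0.16 after GC removal. The 24 included 9 semaphorins, 5 plexins and 3 ephrins, families that also make up much of the list, so these counts single out no family. Sema6d measured 151, 160 and 148 CPM in sh-NT and 124, 105 and 117 CPM in sh-Gpc4 (-0.41 ± 0.09, edgeR adjusted p = 0.180). Plxna2, a semaphorin receptor, measured 736, 751 and 627 CPM against 576, 493 and 498 CPM (-0.43 ± 0.10, adjusted p = 0.204). Integrins and extracellular matrix genes had 32 of 40 members negative, 12 of them separate (30% of the list), and a median of -0.36 that was -0.28 after GC removal and -0.18 without sh-Gpc4 library 3. Median transcript length was 5673 bases in the guidance list and 6068.5 in the matrix list, against 3444 for expressed genes. Its part in these medians was not tested. Fn1, encoding fibronectin, measured 111, 116 and 93.4 CPM against 81.9, 69.9 and 74.4 CPM (-0.50 ± 0.11, adjusted p = 0.180), and Itgav, the integrin alpha V chain, 31.3, 34.2 and 33.2 CPM against 25.5, 24.6 and 26.0 CPM (-0.38 ± 0.09). The cadherins had 14 positive and 22 negative members, 3 separate higher and 11 separate lower, and a median of -0.08 (-0.12 after GC removal). Cdh24, a cadherin of the list, lay lower at 10.7, 14.9 and 11.3 CPM against 5.02, 1.93 and 3.31 CPM (-1.86 ± 0.32, adjusted p = 0.119).

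Markers of the cortical lineage had medians from -0.08 to 0.05, beside 0.02 over all genes tested. Radial glia genes had 22 of 29 members negative and a median of -0.08 (-0.10 after GC removal), and 5 were separate on the lower side (17.2%) and 3 on the higher (10.3%), near the shares of expressed genes. Nr2e1, the nuclear receptor Tlx that keeps neural stem cells dividing, measured 53.1, 65.9 and 58.9 CPM in sh-NT and 36.3, 34.6 and 42.1 CPM in sh-Gpc4 (-0.65 ± 0.12, edgeR adjusted p = 0.138, DESeq2 0.00173). Emx2, a cortical patterning factor, was lower by a smaller and tighter amount at 25.6, 25.5 and 27.0 CPM against 21.5, 20.9 and 21.1 CPM (-0.29 ± 0.09). Intermediate progenitors had a median of -0.08, which was 0.04 after GC removal. Newborn and migrating excitatory neurons had one of -0.01, upper-layer neurons 0.00 and deep-layer neurons 0.05, and after GC removal these were -0.02, 0.02 and 0.05. Without sh-Gpc4 library 3 they were -0.04, -0.05 and -0.04. The S phase list had 41 of 60 members negative and 19 separate, all lower (31.7%), with a median of -0.10 that was -0.09 after GC removal and -0.14 without sh-Gpc4 library 3. The G2 and M phase list had 30 positive and 36 negative members, 14 separate lower (21.2%) and 1 separate higher, and a median of -0.01 that was -0.10 after GC removal and -0.13 without that library. Chaf1a, a histone chaperone of replicating DNA, measured 108, 113 and 94.9 CPM against 83.7, 63.4 and 76.9 CPM (-0.50 ± 0.12, adjusted p = 0.209). Ccnd1, the G1 cyclin D1, measured 126, 132 and 105 CPM against 89.7, 70.5 and 96.1 CPM (-0.50 ± 0.14).

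Lists of housekeeping complexes had small positive medians. Cytoplasmic ribosomal protein genes had 76 of 80 members positive, 48 of them separate (60%, against 11.6% of expressed genes and 10.8% of all tested genes), and a median of 0.15 that was 0.23 after GC removal. Rpl23 measured 126, 124 and 137 CPM in sh-NT and 140, 176 and 153 CPM in sh-Gpc4 (0.27 ± 0.10, edgeR adjusted p = 0.264). Mitochondrial ribosomal proteins (71 of 78 positive, median 0.13), nuclear-encoded subunits of the respiratory chain (74 of 78, median 0.14) and the proteasome (30 of 32, median 0.13) had medians on the same side, which were 0.16, 0.21 and 0.14 after GC removal. Without sh-Gpc4 library 3 they were 0.07, 0.09 and 0.06. Separate and higher were 17.9%, 26.9% and 18.8% of their members, beside 18.8% of expressed genes in the shortest length quartile. By median deviation the groups overlapped in each of them, with sh-NT library 4 above sh-Gpc4 library 1. All 4 lists hold short transcripts, with median lengths of 1054 to 1866 bases against 3444 for expressed genes. The part of length in these medians was not tested. DESeq2 called none of the members of these 4 lists. In the ribosomal list the median deviation of sh-Gpc4 library 3 was 0.19, against 0.02 and 0.01 in libraries 1 and 4, and the list's median without library 3 was 0.09.

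In lipid synthesis the sterol and fatty acid lists had medians of opposite sign. Sterol genes had 16 of 25 members positive (median 0.09, also after GC removal), among them Msmo1, a sterol demethylase, at 144, 155 and 162 CPM against 209, 193 and 191 CPM (0.36 ± 0.08, edgeR adjusted p = 0.197). Fatty acid synthesis had 15 of 18 members negative (median -0.22, -0.23 after GC removal and -0.12 without sh-Gpc4 library 3), among them Acsl3, which activates fatty acids, at 63.0, 68.4 and 63.8 CPM against 39.0, 29.5 and 52.97 CPM (-0.68 ± 0.19). The summed level of the sterol list was 2828, 2993 and 3311 CPM in sh-NT and 3439, 3178 and 2973 CPM in sh-Gpc4. That of the fatty acid list was 2498, 2660 and 2759 CPM against 2561, 1868 and 2167 CPM. The sums overlapped in both lists, and the difference between the 2 lists was not tested.

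Chromatin, vesicle and presynaptic genes each held a few members with wide gaps. Ring1, a ubiquitin ligase of Polycomb repressive complex 1, measured 8.06, 10.96 and 12.4 CPM in sh-NT and 3.63, 2.43 and 4.29 CPM in sh-Gpc4 (-1.60 ± 0.24, edgeR adjusted p = 0.115, DESeq2 5.83e-07). Smarcd1, a subunit of SWI/SNF remodellers, measured 148, 174 and 151 CPM against 95.3, 42.3 and 66.5 CPM (-1.22 ± 0.26). The chromatin list as a whole had a median of -0.04 (0.01 after GC removal), with 18 separate lower members of 66 (27.3%, beside 18.2% of expressed genes) and 4 higher (6.06%, beside 11.6%). Mvb12b and Plekhf2, proteins of endosomal sorting, had differences of -0.98 ± 0.14 and -1.05 ± 0.15, both with an edgeR adjusted p of 0.111, in a list whose median was 0.01 (0.02 after GC removal). Among presynaptic genes, Syn1, encoding synapsin I, measured 37.0, 42.2 and 46.8 CPM against 27.6, 11.2 and 20.03 CPM (-1.10 ± 0.29, adjusted p = 0.220). The presynaptic list had a median of -0.06 (-0.01 after GC removal), with 6 separate higher members (13.3%) and 11 separate lower (24.4%). Atf3, an early stress-induced transcription factor, had separate groups on the higher side, at 27.8, 29.1 and 34.4 CPM against 58.5, 42.7 and 46.9 CPM (0.70 ± 0.14, adjusted p = 0.168). Its list, the immediate early genes, had 21 positive and 8 negative members and a median of 0.12 (0.29 after GC removal). Separate members were 2 higher (6.90%) and 3 lower (10.3%), Egr1 among the lower. The list's median deviation was 0.34 in sh-Gpc4 library 1, but -0.12 and -0.08 in libraries 3 and 4.

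Markers of cells other than the labelled ones were measured in every library. Microglia and macrophage genes had 20 of 22 members positive and the highest median of the 51 lists, 0.46, which was 0.58 after GC removal and ranged from 0.27 to 0.67 when each library was left out in turn. Their summed level was 1556, 1719 and 2408 CPM in sh-NT and 2163, 2295 and 3127 CPM in sh-Gpc4, so the sums overlapped, with sh-NT library 4 above sh-Gpc4 libraries 1 and 3. Separate groups were found in 5 members, all higher (22.7%, beside 11.6% of expressed genes), and no member was at 0 in any library. Without sh-Gpc4 library 4 the median was 0.27. Siglech, a lectin of microglia, had the smallest p of all genes, with 2.02, 1.93 and 1.95 CPM in sh-NT and 5.87, 6.01 and 4.85 CPM in sh-Gpc4 (1.50 ± 0.15; edgeR adjusted p = 0.111, DESeq2 1.95e-13). Trem2, a myeloid lipid receptor, measured 27.1, 25.6 and 38.2 CPM against 39.1, 53.9 and 58.6 CPM (0.74 ± 0.20). In bulk RNA from a sort, more cells of a type and more RNA per cell cannot be told apart. Lsp1, a leukocyte actin-binding protein outside the list, had 6.83, 5.84 and 6.28 CPM against 11.6, 12.7 and 13.8 CPM (1.01 ± 0.13, adjusted p = 0.111).

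Vascular, glial precursor and ventral lists lay lower but at a low level. Endothelial markers had a median of -0.79 over 9 tested genes, mural cells -0.53 over 10 and oligodendrocyte precursors -1.16 over 6, and after GC removal these were -0.76, -0.53 and -0.98. Without sh-NT library 2 these medians were -0.46, -0.26 and -0.89, and without sh-NT library 1 the first 2 were -1.21 and -0.88. The summed endothelial level was 83.1, 87.0 and 76.8 CPM in sh-NT and 69.7, 69.6 and 83.3 CPM in sh-Gpc4, so the sums overlapped. By median deviation of the endothelial list, sh-NT library 1 (-0.38) lay below every sh-Gpc4 library. The sums of the mural and oligodendrocyte precursor lists did not overlap and were lower in sh-Gpc4. Olig2, the defining factor of oligodendrocyte precursors, measured 0.964, 2.51 and 2.04 CPM in sh-NT and 0.515, 0.212 and 0.764 CPM in sh-Gpc4 (-1.88 ± 0.48, edgeR adjusted p = 0.216). Gfap, an intermediate filament of astrocytes and their precursors, measured 3.69, 16.54 and 9.74 CPM against 2.04, 0.819 and 1.82 CPM (-2.68 ± 0.55, adjusted p = 0.168). The list of GABAergic and ventral genes had a median of -0.51, which rested on sh-NT library 1: without it the median was 0.05, and after GC removal it was -0.40. The astrocyte list, to which Gfap belongs, had 4 positive and 7 negative members. Its median was -0.10 over these 11 genes, also after GC removal, and 0.02 without sh-Gpc4 library 3, with 2 members higher and 2 lower at an unadjusted p under 0.05. Its summed level was 1307, 1378 and 1550 CPM in sh-NT and 1544, 1614 and 1807 CPM in sh-Gpc4, so the sums overlapped and lay mostly higher in sh-Gpc4, on the other side from Gfap and from the list's median. Erythroid markers had a median of 0.17 that was 0.42 after GC removal and -0.17 without sh-Gpc4 library 3, and DESeq2 called none of them. The part of these cell types in the other results was not tested.

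Interferon response genes had 20 of 32 members positive and a median of 0.23 (0.20 after GC removal). In 6 members all sh-Gpc4 libraries were higher (18.8%, beside 11.6% of expressed and 10.8% of all tested genes), and in none were all lower. The same 6 were the ones that DESeq2 called: Ifit1, Ifit2, Ifit3, Ifit3b, Rsad2 and Mx1. Ifit proteins bind viral RNA, Rsad2 encodes viperin, which makes a chain-terminating nucleotide, and Mx1 encodes an antiviral GTPase. Their promoters commonly hold the interferon-stimulated response element, bound by the factor complex ISGF3. Searched as TTTCNNTTTC or its reverse complement GAAANNGAAA, the element occurred in 3.44% of 32851 RefSeq promoter windows (GRCm38.p6, 250 bases before to 50 after a start). Counted by gene, with a match in any window, it occurred in 3.99% of 27025 symbols and in 3.84% of tested genes with a window. By the same count it occurred in 14 of the 24 interferon list members with a window (58.3%). Among the 6 genes, 5 had a window and 4 of these held the element (all but Ifit2). So did 10 of the 19 list members with a window whose groups overlapped (52.6%). Overlapping matches are counted separately. The stretches below show the element in 3 genes that were higher and in Isg15, which was not, each 5′ to 3′ on the gene's strand with the matching bases in capitals.
Ifit3, chr19:34583353-34583436, plus strand: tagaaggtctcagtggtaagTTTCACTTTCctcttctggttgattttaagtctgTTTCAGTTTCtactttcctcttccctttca
Ifit1, chr19:34640765-34640833, plus strand: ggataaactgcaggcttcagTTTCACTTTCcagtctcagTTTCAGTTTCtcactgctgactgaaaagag
Rsad2, chr12:26456543-26456592, minus strand: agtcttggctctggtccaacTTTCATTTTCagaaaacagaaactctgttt
Isg15, chr4:156200855-156200916, minus strand: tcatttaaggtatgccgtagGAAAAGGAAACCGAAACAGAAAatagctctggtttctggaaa

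Ifit3, with 2 copies of the element, measured 11.6, 14.8 and 9.21 CPM in sh-NT and 28.3, 25.3 and 32.1 CPM in sh-Gpc4 (1.27 ± 0.18; edgeR adjusted p = 0.111, DESeq2 6.68e-07). Rsad2, with 1 copy, measured 9.40, 11.9 and 5.67 CPM against 21.3, 19.8 and 28.3 CPM (1.36 ± 0.27, adjusted p = 0.157). Ifit1 measured 10.4, 19.2 and 7.63 CPM against 21.1, 24.3 and 29.5 CPM (1.01 ± 0.31, adjusted p = 0.242), so its highest sh-NT library lay just under its lowest sh-Gpc4 library. In all 3 genes sh-NT library 2 was the highest of the controls and library 4 the lowest. Ifit2 measured 48.0, 55.1 and 44.3 CPM against 75.3, 66.0 and 79.3 CPM (0.58 ± 0.11, adjusted p = 0.158), and Mx1 2.15, 2.08 and 1.05 CPM against 3.45, 4.81 and 5.25 CPM (1.35 ± 0.29, adjusted p = 0.176). Ifit3 and Ifit3b (1.42 ± 0.33) are near-identical neighbours, so their reads may be split between them.

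Isg15, a ubiquitin-like protein with 3 overlapping matches, measured 13.5, 27.5 and 9.95 CPM in sh-NT and 20.1, 10.1 and 17.0 CPM in sh-Gpc4, with a log2 difference of -0.11 ± 0.39 (edgeR adjusted p = 0.891). Its groups overlapped, and the difference turned positive without sh-NT library 2 (0.42) or sh-Gpc4 library 3 (0.13). The summed level of the interferon list was 570, 986 and 688 CPM in sh-NT and 845.5, 596.5 and 888 CPM in sh-Gpc4, so the list as a whole did not separate the groups, and sh-NT library 2 was the highest of all 6. Without sh-NT library 2 and sh-Gpc4 library 3 together, the list's median was 0.68. Leaving out each library in turn gave medians from 0.09 to 0.55, the lowest without sh-NT library 1, sh-NT library 4 or sh-Gpc4 library 1. Among expressed genes with a window, the element was found in 4.94% of the 952 that were higher in all sh-Gpc4 libraries, in 2.19% of the 1552 that were lower and in 3.80% of the 5661 whose groups overlapped, shares given as a description only.

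**Figure D5:**
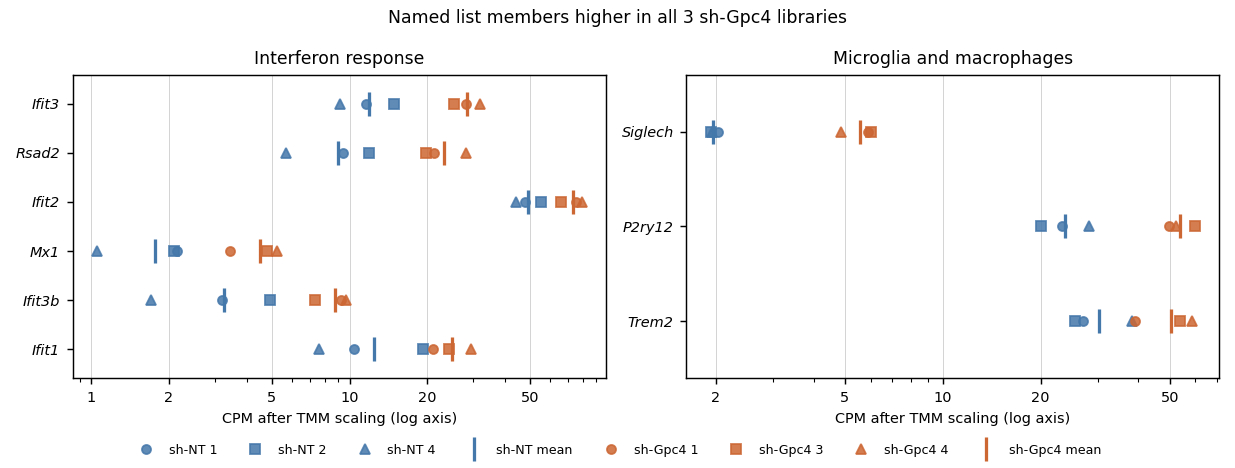
CPM in each library (horizontal axis, log scale) of members named in the text from the interferon list (left, all 6 separate members) and the microglia and macrophage list (right, 3 of the 5 separate members), whose 3 sh-Gpc4 libraries all lay above the 3 sh-NT libraries; blue is sh-NT and orange sh-Gpc4, marker shapes give library numbers and vertical ticks group means. Ifit3 lay between 9.21 and 14.8 CPM in sh-NT and between 25.3 and 32.1 CPM in sh-Gpc4, and Siglech between 1.93 and 2.02 CPM against 4.85 to 6.01 CPM.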

How the data were processed

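RNA of sorted cells was extracted with a column kit for small samples and made into libraries with a low-input kit, per the labels' protocols. The authors deposited 1 table of raw read counts per gene. The submitters' processing notes name featureCounts, Subread and the builds GRCm38 and mm10, without versions. Alignment and strand settings: not given in the sources used here. From the counts of the 6 libraries, genes were filtered with filterByExpr, scaled by the trimmed mean of M values and tested with edgeR 4.0.16 (quasi-likelihood, 2 groups, Benjamini-Hochberg adjustment, threshold 0.05) in R 4.3.3. DESeq2 1.42.0 and limma 3.58.1 were alternatives, as were other filters and scalings, leaving out each library, a replicate block, removal of the GC trend (a spline with 6 degrees of freedom) and a fit of all 9 libraries. CPM are read counts divided by the scaled library size. The edgeR scripts were tested on simulated data. Symbols, GC content and length came from GENCODE M21 (GRCm38), which matched 51486 of 78275 identifiers and 96.8% to 97.0% of reads. The 37 mitochondrial genes held 0 reads and were not analysed. The 5387 tested genes without a GC value are left out of GC and length classes. Depth of 50333500 to 66538437 reads leaves counting error small above about 10 CPM. Numbers in column names and in sample titles differ, so columns were assigned to groups only. No library was a duplicate: chi-square over degrees of freedom within groups was 8.68 to 79.9.

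Genes named were Gpc4 and Gpc2, the 8 smallest p-values per direction, the 12 widest gaps per direction at a mean of at least 10 CPM, and up to 5 members per list with the smallest p. Predicted genes and 6 genes whose level follows sex (Xist, Tsix and 4 Y-linked genes) were left out, while other X-linked genes were kept. A further list member is not reported here. Pax6, Eomes, Neurod6, Ifit1 and Isg15 were named outside that rule, after their values were seen. The members and lists were chosen with earlier results of these data known.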

Additional observations from a re-analysis of the deposited data

How the results depend on the processing

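Most edgeR alternatives also made 0 calls. DESeq2 gave 835 calls, voom 4938, edgeR without a filter on low counts 1791, and leaving out each library in turn 0 to 1935, the highest without sh-Gpc4 library 1. Gpc4 passed the threshold under DESeq2 (-0.53, adjusted p = 0.0325), voom (-0.46) and no filter (-0.55), and its difference was -0.62 to -0.41 with each library left out. With a replicate block by column number, which only numbers 1 and 4 share, edgeR called 330 genes, and the pairing is not shown: deviations of same-numbered libraries correlated at 0.0074 and 0.228. Separate genes numbered 1532 at a mean of at least 50 CPM. The median at 10 to 100 CPM was 0.0189 under the stricter filter, -0.0157 without sh-Gpc4 3 and sh-NT 2 (chosen after seeing the data) and from -0.0121 to 0.0073 with each library left out. Values that changed sign were the log2 fold change of Isg15 (0.67 under the block, 0.66 without both libraries, -0.38 to 0.42 with each left out), the log2 fold change of Neurod6 (-0.0214 under the block, -0.0268 without both) and the log2 fold change of Pax6 (-0.12 by voom, -0.0642 to 0.0889 with each left out). Why the tools differ in their counts was not tested.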
